A study of Mus musculus with 30 samples.

Results

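The genes described here are 10 markers of border macrophages, *Mrc1*, *Cd163*, *Lyve1*, *F13a1*, *Cbr2*, *Ms4a7*, *Clec12a*, *Cd209f*, *Folr2* and *Cd38*. They were taken by gene symbol from a list of known markers, with no threshold on the values measured here. The markers were chosen with earlier results of these data known, so the counts below are not independent of these data. Of the 10 symbols, 8 had a row among the 14225 transcripts of the expression table, with 1 transcript each. *Ms4a7* and *Folr2* have no row and were not analysed here. Each of the 8 was followed through all 10 groups of the study, from the embryo to the adult and through depletion and return of the microglia.

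Border macrophages are the resident macrophages of the meninges, the perivascular spaces and the choroid plexus. Like microglia they descend largely from early embryonic progenitors, carry CD11B and need signaling through CSF1R, so beads against CD11B collect both and a CSF1R inhibitor reaches both. They take up and scavenge material at the interface of blood, cerebrospinal fluid and brain, and they express endocytic receptors that parenchymal microglia express little or not at all. In bulk a lower marker level can come from fewer border macrophages, from less RNA per cell or from changes in other cells. These cannot be told apart.

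RNA was sequenced from CD11B bead-isolated cells of the whole brain of C57BL/6J offspring, whose mothers had been injected during pregnancy with saline (Saline) or with poly(I:C), a mimic of viral RNA that activates the maternal immune system (MIA). Saline and MIA offspring were taken at embryonic day 17 (E17) and postnatal days 7, 20 and 60 (P7, P20, P60). At P60 both kinds of offspring were either fed control chow (CTRL) or had been fed chow with PLX5622, a CSF1R inhibitor, and then control chow while microglia repopulated the brain (MG-REP). Each of the 10 groups had 3 libraries. At E17 the cells of 1 litter made a library; at P7 a library pooled 3 brains, and from P20 on it came from 1. Both sexes were used. An SD below is therefore the spread between the litters, pools or brains of 1 group. The standard errors (SE) and intervals come from 1 model of all 10 groups, with 1 variance per transcript. They mix litters, pools and single brains and do not measure the spread of only the groups compared.

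The deposited values are TPM, reads scaled for transcript length and for the total of the library, which can be set side by side between genes. The TPM of a library summed to 995495 to 998012. From the spacing of low values, 8050000 to 12880000 reads in a library were estimated to lie on the listed transcripts of known length. The paper reports more sequenced reads per sample than this. A transcript 1 kb long gains 0.211 to 0.351 TPM with each of the estimated reads. The summed TPM of 11 microglial markers was 14530 to 48432 in a library, and that of the 8 border macrophage markers 245 to 1471, so that the preparations were microglia with a smaller border macrophage signal. Single libraries stood apart. In the second P60 Saline + MG-REP library 9 neutrophil transcripts summed to 5762 TPM, against 35.4 and 345 in the other 2. Library E17 MIA 3 held 12482 TPM of 8 choroid plexus epithelium transcripts, against 1372 and 3620 TPM in E17 MIA 2 and 1, and P7 MIA 2 and 3 held 10152 and 10194 TPM, against 1951 TPM in P7 MIA 1. Values without these libraries are given below for most of the marker calls. Correlations, percentages of *Mrc1* and counts for other cell types are given with all libraries only.

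The 8 genes lie on 7 chromosomes. In GRCm38.p6, *Mrc1* (NM_008625) spans chr2:14229414-14332023, *Lyve1* (NM_053247) chr7:110850607-110862953 and *Cd163* (NM_001170395) chr6:124304636-124330529. The enzyme genes *F13a1* (NM_028784), *Cbr2* (NM_007621) and *Cd38* (NM_007646) span chr13:36867178-37050244, chr11:120729485-120732025 and chr5:43868809-43912374. The lectin genes *Clec12a* (NM_177686) and *Cd209f* (NM_026956) span chr6:129349783-129365303 and chr8:4102784-4105838. *Cd209f* belongs to a cluster of closely related lectin genes, and how reads shared between them were assigned was not given in the sources used here.

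RefSeq promoter windows of GRCm38.p6, 300 bases long, were at hand for 7 of the 8 genes (all but *Lyve1*), with 2 windows for *F13a1*. The windows were searched on both strands for AGGAAGT, a core of the sites bound by PU.1, for TGACTCA, the AP-1 site, and for TGCTGAC, the core of a MAF recognition element, and no match overlapped a match of another motif. *Mrc1*, the most abundant of the markers, and *Clec12a* and *Cd209f*, which moved in opposite directions after repopulation, are shown. The windows are chr2:14229164-14229463 on the plus strand for *Mrc1*, chr6:129349994-129350293 on the plus strand for *Clec12a* and chr8:4105715-4106014 on the minus strand for *Cd209f*. Capitals mark a match to 1 of the 3 motifs on either strand, and the annotated start follows base 250 of the window. The starts used for *Clec12a* and *Cd209f* lie inside the gene spans given above, and the offsets below count from them.
Mrc1: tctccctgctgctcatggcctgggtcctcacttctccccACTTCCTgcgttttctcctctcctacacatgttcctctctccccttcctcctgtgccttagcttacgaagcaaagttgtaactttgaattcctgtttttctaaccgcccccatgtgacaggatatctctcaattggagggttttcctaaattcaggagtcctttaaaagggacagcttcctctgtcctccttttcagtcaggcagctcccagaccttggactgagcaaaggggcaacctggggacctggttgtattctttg
Clec12a: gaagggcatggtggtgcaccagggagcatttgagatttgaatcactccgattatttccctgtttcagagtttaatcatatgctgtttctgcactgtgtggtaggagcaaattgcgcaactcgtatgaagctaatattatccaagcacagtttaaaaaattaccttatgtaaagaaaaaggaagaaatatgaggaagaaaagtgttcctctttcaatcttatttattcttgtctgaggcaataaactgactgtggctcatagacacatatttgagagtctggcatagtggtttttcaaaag
Cd209f: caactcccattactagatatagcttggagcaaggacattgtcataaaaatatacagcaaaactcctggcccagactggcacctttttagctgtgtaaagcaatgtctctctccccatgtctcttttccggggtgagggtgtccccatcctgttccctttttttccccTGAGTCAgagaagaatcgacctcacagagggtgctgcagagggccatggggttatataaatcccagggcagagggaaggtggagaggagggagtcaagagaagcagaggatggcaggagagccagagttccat
The PU.1-like motif was found in 2 of the 8 windows, once in *Mrc1* at -211 from the start on the reverse strand and at -36 and 15 in 1 of the 2 windows of *F13a1*, and in 9.35% of all 32851 promoters of the table. The AP-1 motif was found only in *Cd209f* among the 8 windows, at -83 on the reverse strand, and in 5.2% of all promoters. The MAF motif was found only in *Cbr2* among them, at 40 on the reverse strand, and in 4.67% of all promoters. The *Clec12a* window held none of the 3 strings, which says only that these letters are not in this window.

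The first question was how the markers change as the brain matures. From E17 to P7, with Saline and MIA offspring averaged, 5 of the 8 rose and 0 fell at an adjusted p under 0.05, where 10.8% of all 14225 transcripts passed. From P7 to P20, 2 rose and 4 fell, where 50.7% of all transcripts passed. From P20 to P60 CTRL, 1 rose and 4 fell, where 12% of all transcripts passed. Without E17 MIA 3, P7 MIA 2 or P7 MIA 3, each left out in turn, the same 5 markers rose from E17 to P7, with log2 fold changes of 0.78 to 1.03 for *Mrc1*, 0.81 to 1.18 for *Lyve1*, 2.45 to 2.67 for *Cbr2*, 3.61 to 4.10 for *Cd209f* and 1.16 to 1.25 for *Cd38*. From P7 to P20 the same 6 passed without P7 MIA 2, and 4 without P7 MIA 3, where *Cd163* and *Cbr2* were lost. Successive steps share the libraries of the age between them. The endocytic receptors *Mrc1* and *Lyve1* peaked at P7, whereas *Cbr2* reached its highest level at P20 and *Clec12a* at P60.

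**Figure D1:**
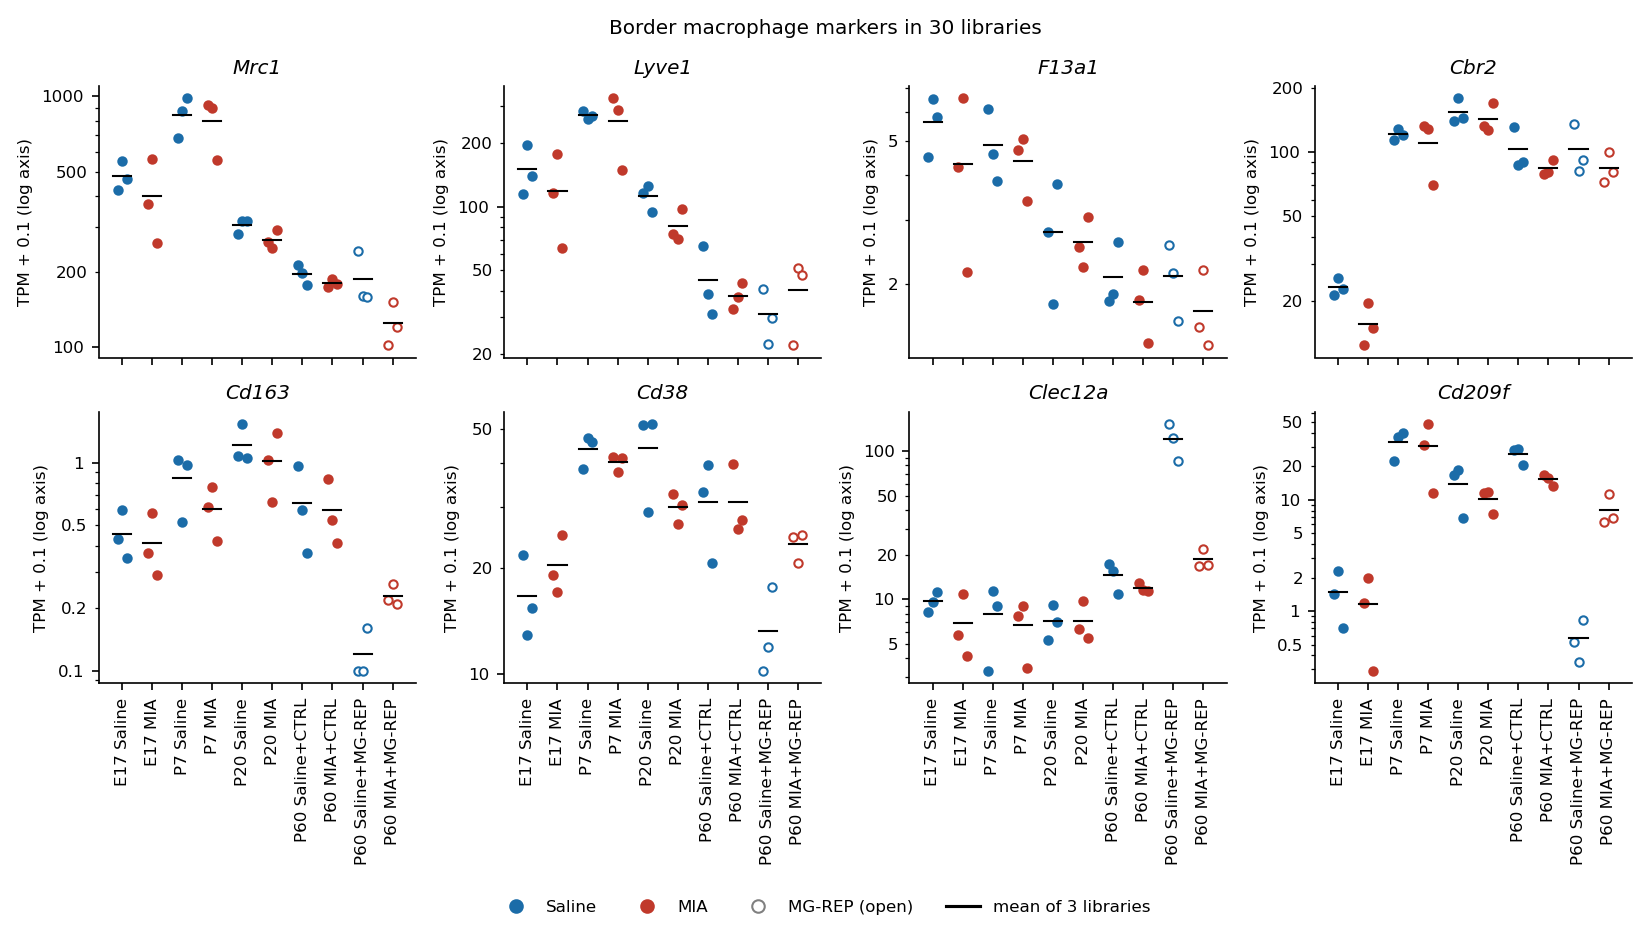
TPM plus 0.1 on a log axis (y) for the 8 border macrophage markers in the 10 groups (x), with 1 point per library, blue for Saline, red for MIA, open points for MG-REP, and a bar at the mean of the 3 libraries. *Mrc1* and *Lyve1* are highest at P7, *Clec12a* reaches 85.4 to 152 TPM in the P60 Saline + MG-REP libraries alone, and *Cd209f* is at 0.25 to 0.74 TPM in the same libraries.

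*Mrc1* encodes the mannose receptor CD206, an endocytic receptor for mannose-bearing glycoproteins. Its TPM at E17 was 424, 553 and 469.6 in the Saline libraries and 372, 563 and 260.3 in the MIA libraries. At P7 it was 679.6, 873 and 983 in Saline and 926, 901 and 559 in MIA libraries. All P7 libraries except MIA 3 lay above all E17 libraries, and the log2 fold change of *Mrc1* was 0.91 (SE 0.16, adjusted p = 0.000408; limma on log2(TPM + 1), Benjamini-Hochberg). At P20 the values were 281, 319 and 319 in Saline and 262, 247 and 294 in MIA libraries, and at P60 CTRL 212, 197 and 176 in Saline and 174, 187 and 178 in MIA libraries. The P20 libraries lay below all P7 libraries and above all P60 CTRL libraries. *Mrc1* fell from P7 to P20 by 1.49 on the log2 scale (SE 0.16, limma adjusted p = 3.99e-08) and from P20 to P60 CTRL by 0.61 (SE 0.16, limma adjusted p = 0.0129). The last call was lost with median-ratio scaling (-0.58, adjusted p = 0.0578) and when *Xist* was taken into account, as given below.

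*Lyve1* encodes a receptor for hyaluronan, shared by lymphatic endothelium and perivascular macrophages. Its TPM was 115.6, 197 and 139.6 in E17 Saline, 116, 177 and 63.7 in E17 MIA, 285, 262 and 269 in P7 Saline and 327, 287 and 149 in P7 MIA libraries. At P20 it was 117, 125 and 94.98 in Saline and 74.4, 70.2 and 98.2 in MIA libraries, and at P60 CTRL 65.1, 38.4 and 31.0 in Saline and 32.6, 37.5 and 43.7 in MIA libraries. Only P7 MIA 3 lay within the E17 range, and no P60 CTRL library reached the P20 range. The changes were a rise of 1.01 (SE 0.25, limma adjusted p = 0.00868) from E17 to P7 and falls by 1.43 (SE 0.25, adjusted p = 3.76e-05) and by 1.22 (SE 0.25, adjusted p = 0.00227) in the later steps, as log2 fold changes.

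*Cd163*, the scavenger receptor for the haptoglobin-hemoglobin complex, was close to the detection limit. It never exceeded 1.43 TPM, which was 4 to 23 estimated reads in a library from E17 to P20. Outside the MG-REP groups, which were lower and are given below, group means ran from 0.31 TPM in E17 MIA to 1.12 TPM in P20 Saline libraries. The fit on log2(TPM + 1) called a rise of 0.32 (SE 0.11, limma adjusted p = 0.0214) from P7 to P20 and a fall by 0.41 (SE 0.11, adjusted p = 0.0182) to P60 CTRL, with overlapping ages in both steps. The authors kept transcripts that reached a CPM of 2 in 3 or more libraries. *Cd163* was highest at P20, so its row may rest on those libraries, and neither step is independent of this filter. Each call was lost when any 1 of 4 libraries was left out. The adjusted p was 0.0587 to 0.0773 without P7 Saline 2, P7 MIA 3, P20 Saline 2 or P20 MIA 3 in the first step. It was 0.0503 to 0.0595 without P20 Saline 2, P20 MIA 3, Saline + CTRL 3 or MIA + CTRL 3 in the second.

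*Cbr2* encodes a carbonyl reductase. Its TPM was 21.3, 25.7 and 22.8 in E17 Saline and 12.4, 19.7 and 14.9 in E17 MIA libraries. At P7 it was 114, 128.5 and 120.4 in Saline and 132, 129 and 69.7 in MIA libraries. The E17 and P7 libraries did not overlap, and the log2 fold change of 2.52 (SE 0.15, limma adjusted p = 1.12e-10) was the largest of the enzymes. At P20 it was 140.2, 179 and 144 in Saline and 132, 127 and 169 in MIA libraries, and at P60 CTRL 131, 87.3 and 90.2 in Saline and 78.5, 80.8 and 92.2 in MIA libraries. All P20 libraries but 1 lay above all P60 CTRL libraries, and *Cbr2* fell by 0.67 (SE 0.15, limma adjusted p = 0.00559) between these ages. The rise of 0.38 (SE 0.15, limma adjusted p = 0.0437) from P7 to P20 was small, and it no longer passed when any 1 of 7 of the 12 libraries was left out, with an adjusted p of 0.0502 to 0.171. It was 0.23 without P7 MIA 3.

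*Cd38* encodes an ectoenzyme that consumes NAD. It rose from 21.7, 12.8 and 15.3 TPM in E17 Saline and 19.0, 16.98 and 24.9 TPM in E17 MIA libraries to 38.5, 47.1 and 46.0 TPM in P7 Saline and 41.6, 37.7 and 41.1 TPM in P7 MIA libraries. The ages did not overlap, and the log2 fold change was 1.17 (SE 0.17, limma adjusted p = 7.22e-05). Later steps did not pass, with -0.23 (SE 0.17, adjusted p = 0.278) to P20 and -0.23 (SE 0.17, adjusted p = 0.433) to P60 CTRL.

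*F13a1* encodes the catalytic subunit of the transglutaminase that crosslinks fibrin, which macrophages also make. It was 2.05 to 6.45 TPM at E17, 3.29 to 6.02 TPM at P7, 1.66 to 3.69 TPM at P20 and 1.27 to 2.51 TPM at P60 CTRL. The ranges of successive ages overlapped. It fell by 0.63 (SE 0.19, limma adjusted p = 0.00714) from P7 to P20, while the log2 fold changes of the other steps were -0.04 (SE 0.19, adjusted p = 0.920) and -0.33 (SE 0.19, adjusted p = 0.276).

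*Cd209f* encodes a C-type lectin of the mouse DC-SIGN family. It stood at 1.33, 2.17 and 0.61 TPM in E17 Saline and 1.08, 1.90 and 0.19 TPM in E17 MIA libraries, which were 1 to 12 estimated reads. At P7 it was 22.2, 36.2 and 39.3 TPM in Saline and 31.2, 47.6 and 11.5 TPM in MIA libraries. Every P7 library lay above every E17 library, with a log2 fold change of TPM + 1 of 3.82 (SE 0.29, limma adjusted p = 4.26e-09). It was 16.4, 18.4 and 6.70 TPM in P20 Saline and 11.3, 11.6 and 7.41 TPM in P20 MIA libraries. That was a fall by 1.27 (SE 0.29, limma adjusted p = 0.000807), in which P7 MIA 3 lay within the P20 range. The P60 CTRL libraries are given below, and the step from P20 to them did not pass (0.74, SE 0.29, adjusted p = 0.103).

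*Clec12a* encodes an inhibitory C-type lectin receptor of myeloid cells. In the 18 libraries from E17 to P20 it was 3.19 to 11.4 TPM, and in the 6 P60 CTRL libraries 10.7 to 17.1 TPM. The P60 CTRL libraries lay above all P20 libraries, whose highest value was 9.65 TPM, and the log2 fold change was 0.82 (SE 0.25, limma adjusted p = 0.0357). The call was lost, with an adjusted p of 0.0542 to 0.0872, when any 1 of 9 of the 12 libraries was left out, that is all but P20 Saline 2, P20 MIA 2 and Saline + CTRL 3.

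Markers of other cells were followed through the same steps, in which 10.8%, 50.7% and 12% of all transcripts passed. Of 11 microglial markers 10 rose from P7 to P20, where 50.7% of all transcripts passed, and their sum was 18618 to 26931 TPM at P7 and 31984 to 46063 TPM at P20. Of 8 choroid plexus transcripts 2 rose from E17 to P7, 3 rose from P7 to P20 and 4 fell from P20 to P60 CTRL, where their sums went from 3135 to 7200 TPM down to 511 to 2692 TPM. Of 8 meningeal fibroblast transcripts 2 rose from E17 to P7, 3 fell from P7 to P20, from sums of 279 to 535 TPM to 163 to 248 TPM, and 3 fell from P20 to P60 CTRL, to 82.7 to 175 TPM. None of the transcripts on the lists of cell types was at 0 in all libraries of a group. In the P7 libraries 4 Y-linked transcripts summed to 125 to 285 TPM, except in P7 MIA 2 (0.1 TPM), and at P20 to at most 0.59 TPM. With *Xist* as a covariate 5 of the markers passed in limma from P7 to P20, and *Cbr2* was lost. All P20 libraries held *Xist* and almost no RNA from the Y chromosome, whereas libraries 2 and 3 of both P60 CTRL groups held *Xist* at 0.14 to 0.29 TPM while the 4 Y-linked transcripts summed to 268 to 318 TPM. With *Xist* as a covariate 0 of the 8 markers passed in limma between P20 and P60 CTRL. Over all transcripts 365 passed in that fit, against 1700 without the covariate. A fit with only the first library of each CTRL group was tried after the data were seen. In the latter fit *Mrc1* was at -0.57 (adjusted p = 0.201), *Lyve1* at -1.02 (adjusted p = 0.116), *Cbr2* at -0.53 (adjusted p = 0.195) and *Clec12a* at 1.003 (adjusted p = 0.153), beside -0.61, -1.22, -0.67 and 0.82 with all libraries, while *Cd163* was at -0.16 (adjusted p = 0.611). The part of other cells in these steps was not tested.

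**Figure D2:**
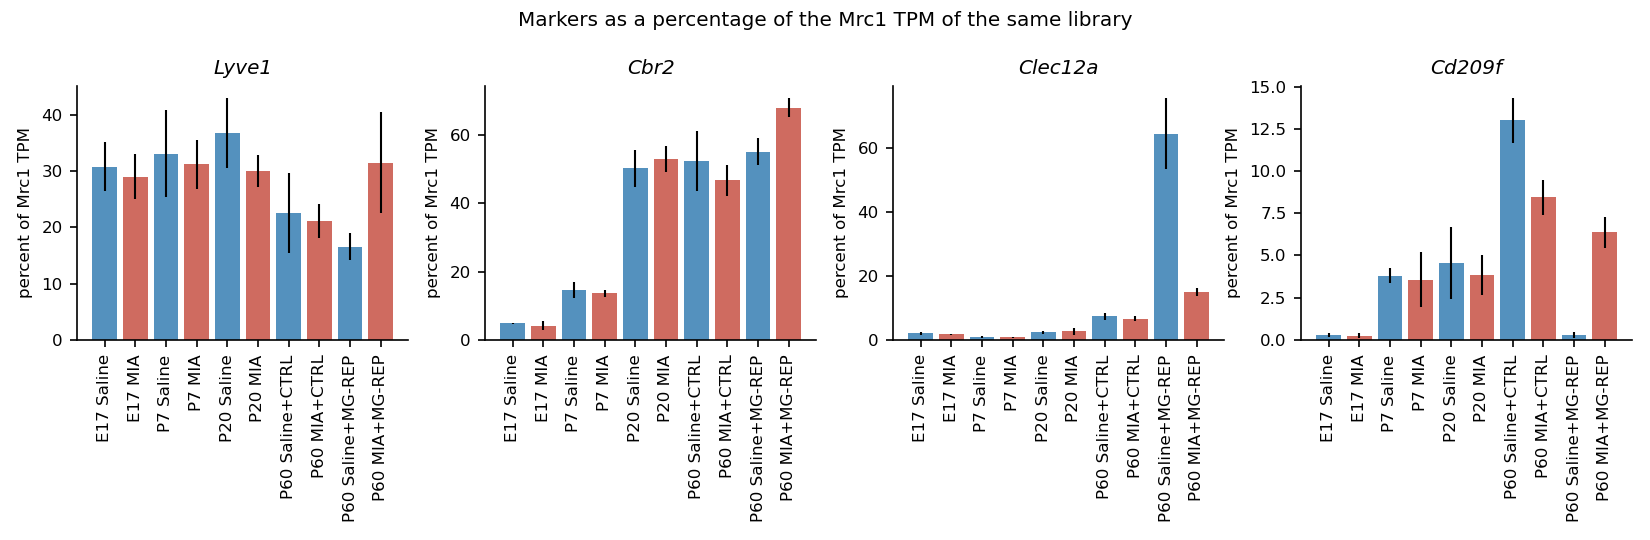
TPM of 4 markers as a percentage of the *Mrc1* TPM of the same library (y), by group (x); bars are means of 3 libraries, error bars the SD, blue Saline and red MIA. *Cbr2* climbs from 4.84% of *Mrc1* in E17 Saline to 50.3% in P20 Saline libraries, and *Clec12a* reaches 64.5% in P60 Saline + MG-REP libraries.

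Because the markers followed different courses, their proportions changed with age. *Lyve1* stood at 30.9% ± 4.29 (SD, n = 3) of the *Mrc1* TPM in E17 Saline, 33.1% ± 7.79 (SD, n = 3) in P7 Saline and 36.8% ± 6.21 (SD, n = 3) in P20 Saline libraries, and the ranges of the 3 overlapped. *Cbr2* was 4.84% ± 0.188 (SD, n = 3) of *Mrc1* in E17 Saline, 14.6% ± 2.25 (SD, n = 3) in P7 Saline, 50.3% ± 5.36 (SD, n = 3) in P20 Saline and 52.4% ± 8.91 (SD, n = 3) in P60 Saline + CTRL libraries. *Cd209f* was 0.279% ± 0.135 (SD, n = 3), 3.81% ± 0.468 (SD, n = 3), 4.57% ± 2.14 (SD, n = 3) and 13.01% ± 1.32 (SD, n = 3) of *Mrc1* in the same 4 groups. Between Saline libraries of successive ages, the *Cbr2* ranges did not overlap up to P20 and overlapped from P20 to P60, and the *Cd209f* ranges overlapped only from P7 to P20. In MIA libraries *Cbr2* was 4.19%, 13.7%, 53.2% and 46.8% and *Cd209f* 0.233%, 3.57%, 3.85% and 8.44% of *Mrc1* in the matching groups.

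In the order of group means, *Mrc1* was the most abundant of the 8 in every group and *Cd163* the least. For *Mrc1* the order ran P7 Saline, P7 MIA, E17 Saline, E17 MIA, P20 Saline, P20 MIA and then the P60 groups, and only 3 neighbours in it were apart in all libraries: P7 MIA from E17 Saline, P20 MIA from P60 Saline + CTRL, and P60 MIA + CTRL from P60 MIA + MG-REP. *Lyve1* had the same order of ages, and only P20 MIA and P60 Saline + CTRL were apart. For *F13a1* no neighbours were apart. For *Cbr2*, P60 MIA + CTRL lay apart from E17 Saline, and E17 Saline from E17 MIA. For *Cd38*, only P20 MIA and P60 MIA + MG-REP were apart. *Cd163* separated at its lower end, between E17 MIA, P60 MIA + MG-REP and P60 Saline + MG-REP. Each lectin separated at a repopulated group and also between groups that were not repopulated. *Clec12a* in P60 Saline + MG-REP lay apart from the next group, P60 MIA + MG-REP, and P60 MIA + CTRL from E17 Saline. *Cd209f* in P60 Saline + CTRL lay apart from P60 MIA + CTRL, and in P60 MIA + MG-REP from E17 Saline. Its lowest group, P60 Saline + MG-REP, overlapped E17 MIA.

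The next question was whether maternal immune activation changed the markers. Between MIA and Saline libraries, 0 of the 8 passed at E17, where 0% of all transcripts passed, and 0 of 8 passed at P7 (0%), at P20 (0%) and at P60 CTRL (0%). At an unadjusted p under 0.05 limma gave 1, 0, 0 and 0 of the 8, and 585, 335, 457 and 256 of all 14225 transcripts. The single marker was *Cbr2* at E17, with 15.7 ± 3.70 TPM (SD, n = 3) in MIA and 23.3 ± 2.23 TPM (SD, n = 3) in Saline litters, a log2 fold change of -0.56 (SE 0.22, limma adjusted p = 0.754) in which the groups did not overlap. Its 95% interval ran from -1.01 to -0.11. *Cd209f* at P60 CTRL was the other marker whose groups did not overlap, at -0.71 (95% interval -1.56 to 0.14). How many of all transcripts had groups without overlap was not counted.

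The intervals of the 2 most abundant receptors were wide. Because the variance is shared by all groups, the SE was the same at the 4 ages, 0.22 for *Mrc1* and 0.35 for *Lyve1*. For *Mrc1* the log2 fold change between MIA and Saline was -0.34 (95% interval -0.80 to 0.12) at E17, -0.11 (-0.57 to 0.35) at P7, -0.20 (-0.66 to 0.26) at P20 and -0.12 (-0.58 to 0.34) at P60 CTRL. For *Lyve1* it was -0.42 (-1.14 to 0.30), -0.17 (-0.89 to 0.55), -0.47 (-1.19 to 0.25) and -0.18 (-0.89 to 0.54). The median over the 8 markers was -0.37, -0.17, -0.17 and -0.17 at the 4 ages, against 0.10, 0.03, -0.05 and 0.03 over all transcripts. Without E17 MIA 3 or P7 MIA 3, 0 of the 8 still passed at these ages.

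The last question was what remained of the border macrophage signal once microglia had been depleted and had returned. In Saline offspring the markers divided. *Clec12a* rose, *Cd209f*, *Cd38* and *Cd163* fell, and *Mrc1*, *Lyve1*, *F13a1* and *Cbr2* did not pass, so that 4 of 8 changed at an adjusted p under 0.05, where 26.7% of all transcripts passed. In MIA offspring 0 of 8 passed, where 0.555% of all transcripts passed; 3 of 8 (*Mrc1*, *Cd163* and *Cd209f*) and 882 of all transcripts had an unadjusted p under 0.05 in limma.

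*Clec12a* was 17.1, 15.5 and 10.7 TPM in the Saline + CTRL libraries and 152, 122 and 85.4 TPM in the Saline + MG-REP libraries. It was 12.9, 11.5 and 11.4 TPM in MIA + CTRL and 16.6, 21.8 and 16.9 TPM in MIA + MG-REP libraries. Every MG-REP library lay above every CTRL library of its kind, but the Saline libraries moved much further. The log2 fold change was 2.95 (SE 0.36, limma adjusted p = 8.50e-07) in Saline, or 7.74-fold, and 0.58 (SE 0.36, adjusted p = 0.954) in MIA offspring. The difference between the 2 changes, MIA minus Saline, was -2.37 (SE 0.51, adjusted p = 0.00291).

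*Cd209f* went the other way. It was 27.6, 28.3 and 20.6 TPM in Saline + CTRL and 0.43, 0.25 and 0.74 TPM, or 1 to 3 estimated reads, in Saline + MG-REP libraries. In MIA offspring it was 16.6, 15.5 and 13.3 TPM in CTRL and 6.15, 11.3 and 6.78 TPM in MG-REP libraries. The MG-REP libraries lay below all CTRL libraries in both kinds of offspring, by far more in Saline. On the scale of log2(TPM + 1) it fell by 4.17 (SE 0.41, limma adjusted p = 3.82e-08) in Saline, while the change in MIA was -0.87 (SE 0.41, adjusted p = 0.789). With an offset of 0.1 in place of 1 the change in Saline was -5.56, so the size of the fall depends on the offset. The difference, MIA minus Saline, was 3.30 (SE 0.58, adjusted p = 0.000449).

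*Cd38* was 32.9, 39.4 and 20.6 TPM in Saline + CTRL and 10.1, 11.8 and 17.5 TPM in Saline + MG-REP libraries. In MIA offspring it was 39.6, 25.8 and 27.5 TPM in CTRL and 24.5, 20.6 and 24.9 TPM in MG-REP libraries. Neither pair of groups overlapped. It fell by 1.16 (SE 0.25, limma adjusted p = 0.000842) in Saline, while the change in MIA was -0.37 (SE 0.25, adjusted p = 0.968), and the difference of 0.79 (SE 0.35, adjusted p = 0.166) did not pass. In a fit of only the 2 Saline groups the adjusted p was 0.0511.

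*Cd163* was 0.86, 0.49 and 0.27 TPM in Saline + CTRL libraries and was listed at 0 in the first 2 and at 0.06 in Saline + MG-REP 3. In MIA offspring it was 0.73, 0.43 and 0.31 TPM in CTRL and 0.12, 0.16 and 0.11 TPM in MG-REP libraries. The MG-REP libraries thus held 0 to 3 estimated reads, against 5 to 13 in CTRL libraries. The fall by 0.58 (SE 0.16, limma adjusted p = 0.00860) in Saline was lost without the first Saline + CTRL library (adjusted p = 0.0740) and in a fit of only the 2 groups (adjusted p = 0.0561). In MIA the change was -0.39 (SE 0.16, adjusted p = 0.623).

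The other 4 markers did not pass in either kind of offspring. *Mrc1* was 241, 159.9 and 158 TPM in Saline + MG-REP libraries, around the Saline + CTRL values, with a log2 fold change of -0.09 (95% interval -0.55 to 0.37, adjusted p = 0.807, limma). In MIA + MG-REP libraries it was 102, 152 and 120.5 TPM, below all MIA + CTRL libraries, with -0.54 (SE 0.22, adjusted p = 0.623). For *Cbr2* the 3 values were 135, 81.3 and 92.2 TPM in Saline + MG-REP and 72.5, 100.5 and 80.5 TPM in MIA + MG-REP libraries. These overlapped the CTRL values in both kinds of offspring, with log2 fold changes of -0.01 (-0.46 to 0.44) and 0.00 (-0.45 to 0.45). *Lyve1* was 40.8, 22.4 and 29.7 TPM in Saline + MG-REP and 22.0, 51.1 and 47.4 TPM in MIA + MG-REP libraries, overlapping the CTRL range, with -0.49 (-1.21 to 0.23, adjusted p = 0.334) and 0.00 (-0.72 to 0.72). *F13a1* was 1.48 to 2.47 TPM in Saline + MG-REP and 1.25 to 2.08 TPM in MIA + MG-REP libraries, with 0.00 (-0.54 to 0.54) and -0.06 (-0.60 to 0.49). These intervals still hold changes of up to 1.21 on the log2 scale for *Lyve1* and 0.55 for *Mrc1* in Saline offspring.

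**Figure D3:**
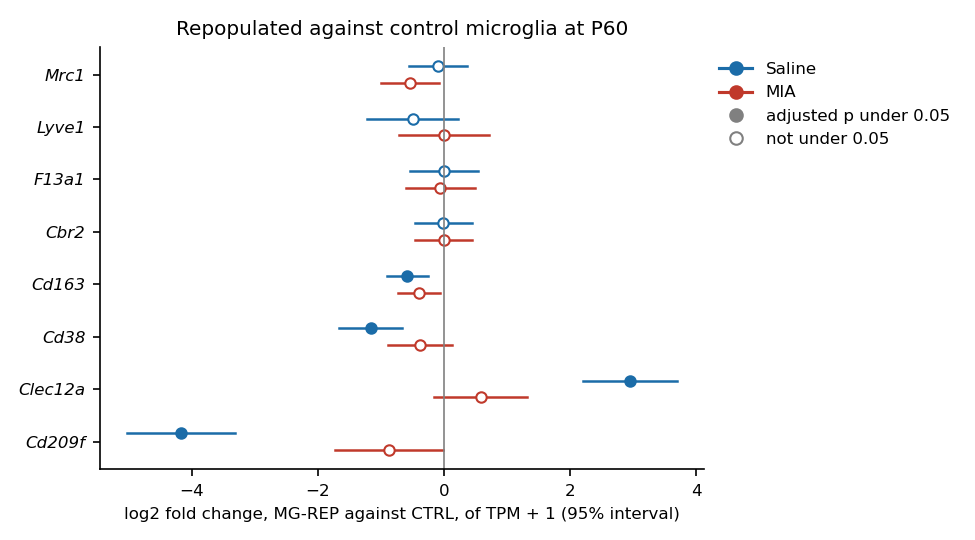
Log2 fold change of TPM + 1 between MG-REP and CTRL at P60 (x) for the 8 markers (y) in Saline (blue) and MIA (red) offspring; lines are 95% intervals of the limma fit with 3 libraries a group, and filled points passed an adjusted p of 0.05. Only *Cd163*, *Cd38*, *Clec12a* and *Cd209f* are filled, all in Saline offspring, with *Clec12a* at 2.95 and *Cd209f* at -4.17.

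Of the 8 differences between the 2 repopulation effects, 2 passed, where 10.5% of all transcripts passed. They were those of *Clec12a* and *Cd209f*. Set against each other directly, MIA + MG-REP libraries differed from Saline + MG-REP libraries in 3 of the 8, where 22% of all transcripts passed. *Clec12a* was lower by a log2 fold change of -2.60 (SE 0.36, limma adjusted p = 8.20e-06), *Cd209f* higher by 2.59 (SE 0.41, adjusted p = 5.53e-05) and *Cd38* higher by 0.81 (SE 0.25, adjusted p = 0.0185). The last was lost without any 1 of 4 of the 6 libraries (all but Saline + MG-REP 3 and MIA + MG-REP 2), with an adjusted p of 0.0536 to 0.129. *Mrc1* was lower in all 3 MIA + MG-REP libraries and did not pass (-0.57, SE 0.22, adjusted p = 0.0716). The direct comparison, the 2 repopulation effects and their difference share libraries and are not independent of each other.

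Relative to *Mrc1*, *Clec12a* rose from 7.33% ± 1.09 (SD, n = 3) in Saline + CTRL to 64.5% ± 11.2 (SD, n = 3) in Saline + MG-REP libraries, and was 6.65% ± 0.651 (SD, n = 3) in MIA + CTRL and 14.9% ± 1.27 (SD, n = 3) in MIA + MG-REP libraries. *Cd209f* was 13.01% ± 1.32 (SD, n = 3) and 0.268% ± 0.175 (SD, n = 3) in the 2 Saline groups and 8.44% ± 1.04 (SD, n = 3) and 6.37% ± 0.936 (SD, n = 3) in the 2 MIA groups. *Cbr2* was 52.4% ± 8.91 (SD, n = 3) and 55.2% ± 3.91 (SD, n = 3) in Saline offspring, and 46.8% ± 4.52 (SD, n = 3) and 68.1% ± 2.79 (SD, n = 3) in MIA offspring.

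Markers of other cells were compared between the same P60 groups, where 26.7% of all transcripts passed in Saline and 0.555% in MIA offspring. The 11 microglial markers summed to 33963 to 48432 TPM in Saline + CTRL and 19887 to 22334 TPM in Saline + MG-REP libraries, and 9 of them fell, whereas 0 of them changed in MIA offspring (28324 to 42072 and 34904 to 39631 TPM). The 10 endothelial transcripts summed to 2088 to 3725 and 1025 to 1925 TPM in the 2 Saline groups, with 3 lower, and the 5 mural cell transcripts to 989.9 to 1531 and 389 to 722 TPM, with 3 lower. The 8 meningeal fibroblast transcripts summed to 82.7 to 152 and 37.7 to 101 TPM, with 2 lower, and the 8 choroid plexus transcripts to 511 to 2692 and 418 to 1389 TPM, with 0 called. The 7 monocyte transcripts summed to 62.9 to 88.8 TPM in Saline + CTRL and 64.3, 346 and 70.8 TPM in Saline + MG-REP libraries, with 1 higher and 1 lower. Of the 9 neutrophil transcripts 0 passed. In MIA offspring 0 transcripts of these lists passed. The part of these cells in the marker changes was not tested.

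The second Saline + MG-REP library, which held the neutrophil signal, did not decide the calls: without it the same 4 markers, *Cd163*, *Cd209f*, *Cd38* and *Clec12a*, passed in Saline, with *Clec12a* at 2.92 (adjusted p = 1.00e-05, limma) and *Cd209f* at -4.06 (adjusted p = 6.81e-07). All 6 MG-REP libraries held *Xist*, at 159 to 174 TPM, and at most 0.62 TPM of the Y-linked transcripts, whereas only the first library of each CTRL group did so. With that library alone as the control, which was tried after the data were seen, the same 4 markers passed in Saline, with *Clec12a* at 2.69 (adjusted p = 0.00189) and *Cd209f* at -4.29 (adjusted p = 9.78e-05). For the difference between MIA and Saline, *Cd209f* still passed at 3.29 (adjusted p = 0.0396) and *Clec12a* at -2.22 (adjusted p = 0.117) did not.

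A wider list of 27 genes known from border macrophages, of which 21 had a row with 23 transcripts, was followed in the same fit. Only *Cp* has several transcripts among the 23 (NM_001276250, NM_001276248 and NM_007752), and each was counted. The list was drawn up with results of these data known and is not independent of them. From E17 to P7, 9 of the 23 rose and 0 fell (10.8% of all transcripts passed), and 14 rose without P7 MIA 3. First in log2 fold change were the chemokines *Ccl8* (3.32, SE 0.26) and *Ccl24* (1.89, SE 0.21) and the lectins *Mgl2* (2.48, SE 0.21) and *Cd209g* (2.41, SE 0.27), with adjusted p of 7.76e-09, 2.20e-06, 3.29e-08 and 2.36e-06 in limma. From P7 to P20, 5 rose and 11 fell, where 50.7% of all transcripts passed. All listed *Cp* transcripts were among the 5 that rose. The largest changes without overlap were those of the ficolin *Fcna* (-2.52, SE 0.27), of *Ccl24* (-1.91, SE 0.21), of *Igfbp4*, a carrier of insulin-like growth factors (-1.79, SE 0.10), and of a transcript of the ferroxidase gene *Cp* (1.67, SE 0.16). From P20 to P60 CTRL, 2 rose and 5 fell (12% of all transcripts passed), among them the chemokine receptor *Ccr1* (-1.16, SE 0.22), *Ms4a4a* (-0.91, SE 0.28) and *Igfbp4* (-0.74, SE 0.10); with only the P60 CTRL libraries with *Xist*, 0 rose and 1 fell. Leaving out any 1 of the 12 libraries left 0 or 1 that rose, and 3 fell without P20 Saline 3 or without library 2 or 3 of either CTRL group. Medians over the 23 were 0.46, -0.32 and -0.23 in the 3 steps, against 0.01, -0.05 and -0.02 over all transcripts and 0.96, -0.43 and -0.37 over the 8 markers.

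The wider list moved in both directions after repopulation. In Saline offspring 9 of the 23 rose and 10 fell, where 26.7% of all transcripts passed, and 6 fell without Saline + CTRL 1. All listed transcripts of the 1 gene *Cp* were among the 10 that fell. In MIA offspring 2 rose and 0 fell, where 0.555% passed. *Ccr1* was 17.3 to 34.8 TPM in Saline + CTRL and 224 to 396 TPM in Saline + MG-REP libraries, a log2 fold change of 3.43 (SE 0.31, limma adjusted p = 7.32e-09). *Siglec1*, the sialic acid receptor CD169, was 14.3 to 25.5 and 174 to 205 TPM (3.37, SE 0.27, adjusted p = 1.20e-09), and *Ms4a4a*, a membrane protein of the family of *Ms4a7*, 31.8 to 39.7 and 246 to 309 TPM (2.94, SE 0.40, adjusted p = 4.03e-06). *Cd209g*, a neighbour of *Cd209f* in family, was 4.93 to 12.3 and 0 to 0.25 TPM (-2.92, SE 0.39, adjusted p = 3.20e-06). The groups of each of these 4 did not overlap. In MIA offspring the 2 that rose were *Ccl8* (1.64, SE 0.37, adjusted p = 0.0406) and *Siglec1* (1.17, SE 0.27, adjusted p = 0.0455), and 0 of the 23 passed there without any 1 of the 6 libraries.

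The differences between the 2 effects passed for 12 of the 23, 5 higher and 7 lower in MIA, where 10.5% of all transcripts passed. The 5 higher became 1 without Saline + CTRL 1 or MIA + MG-REP 2 and 3 without Saline + MG-REP 1 or MIA + MG-REP 1. The differences were -3.42 for *Ms4a4a* (SE 0.56, adjusted p = 0.000203), -2.79 for *Ccr1* (SE 0.43, adjusted p = 0.000112), -2.21 for *Siglec1* (SE 0.38, adjusted p = 0.000361) and 2.05 for *Cd209g* (SE 0.55, adjusted p = 0.0166). Between MIA + MG-REP and Saline + MG-REP libraries 7 were higher and 8 lower, where 22% of all transcripts passed, and the largest were *Ms4a4a* (-3.33, SE 0.40), *Ccr1* (-2.89, SE 0.31), the platelet factor gene *Pf4* (-2.73, SE 0.34) and the extracellular matrix gene *Tgfbi* (-2.65, SE 0.27). *Pf4* was 122 to 156 TPM in Saline + CTRL, 408 to 901 TPM in Saline + MG-REP and 69.6 to 92.0 TPM in MIA + MG-REP libraries. The median over the 23 was 0.08 in Saline and 0.07 in MIA offspring, against -0.14 and -0.08 over all transcripts and -0.29 and -0.22 over the 8 markers.

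**Figure D4:**
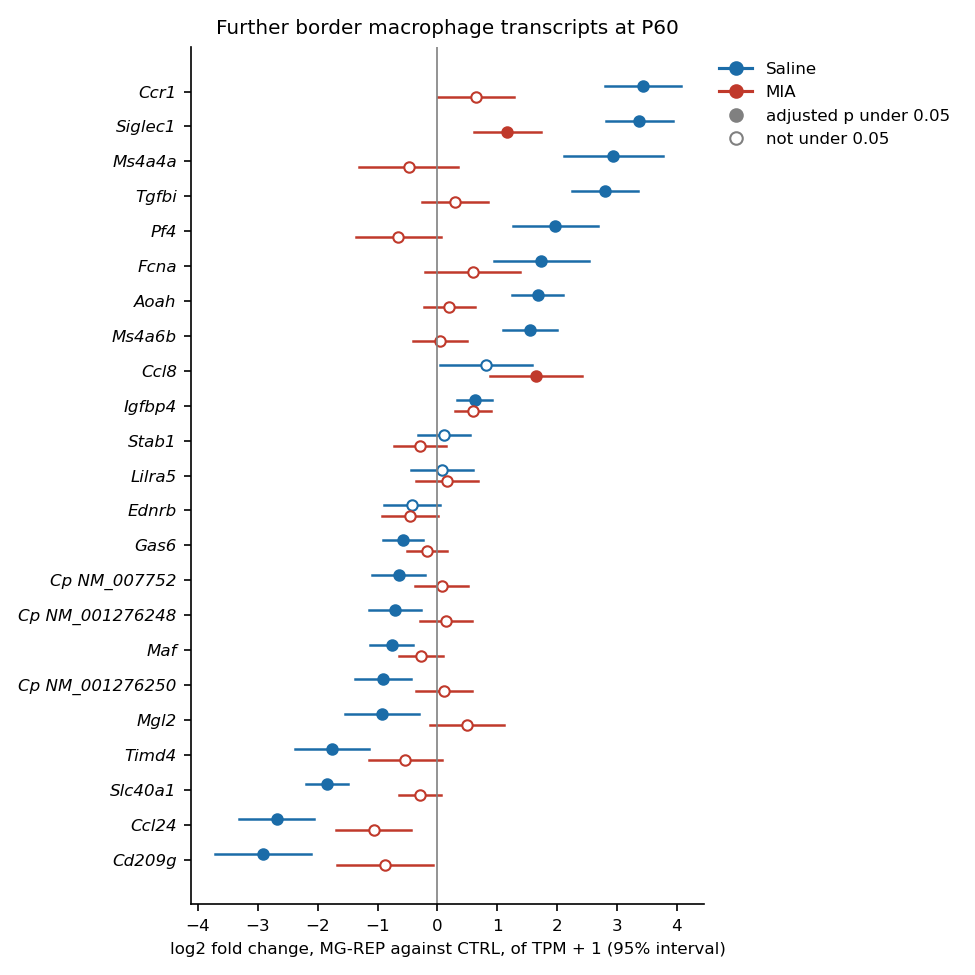
Log2 fold change of TPM + 1 between MG-REP and CTRL at P60 (x) for the 23 transcripts of the wider list (y, ordered by the value in Saline) in Saline (blue) and MIA (red) offspring; lines are 95% intervals of the limma fit, and filled points passed an adjusted p of 0.05. In Saline 19 of the 23 are filled, from *Ccr1* at 3.43 to *Cd209g* at -2.92, and in MIA only *Siglec1* and *Ccl8* are.

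Within groups, several markers varied together from library to library, and *Cd38* did not vary with them. Over the 30 libraries, as deviations from the group means of log2(TPM + 1), Pearson's r was 0.83 between *Mrc1* and *Lyve1*, 0.77 between *Mrc1* and *Cbr2*, 0.79 between *Lyve1* and *Cbr2*, 0.75 between *Mrc1* and *Clec12a* and 0.63 between *Mrc1* and *Cd209f*. *Cd38* had an r of -0.34 to 0.00 with the 7 other markers. The deviations of *Cd38* ran instead with those of the endothelial list (r = 0.68) and the meningeal fibroblast list (r = 0.61), with which *Mrc1* had an r of -0.64 and -0.66. With the microglial list r was -0.55 for *Cd38* and 0.38 to 0.51 for *Mrc1*, *Lyve1*, *Cbr2*, *Clec12a* and *Cd209f*. It was -0.01 for *Cd163* and 0.18 for *F13a1*. Libraries E17 MIA 3 and P7 MIA 3 are examples: *Mrc1* was lowest of its group in both, at 260.3 and 559 TPM, and *Cd38* was at 24.9 and 41.1 TPM, the highest and the middle value. These are descriptions, since the points share libraries whose TPM sum to a fixed total and differ in their mixture of cells.

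**Figure D5:**
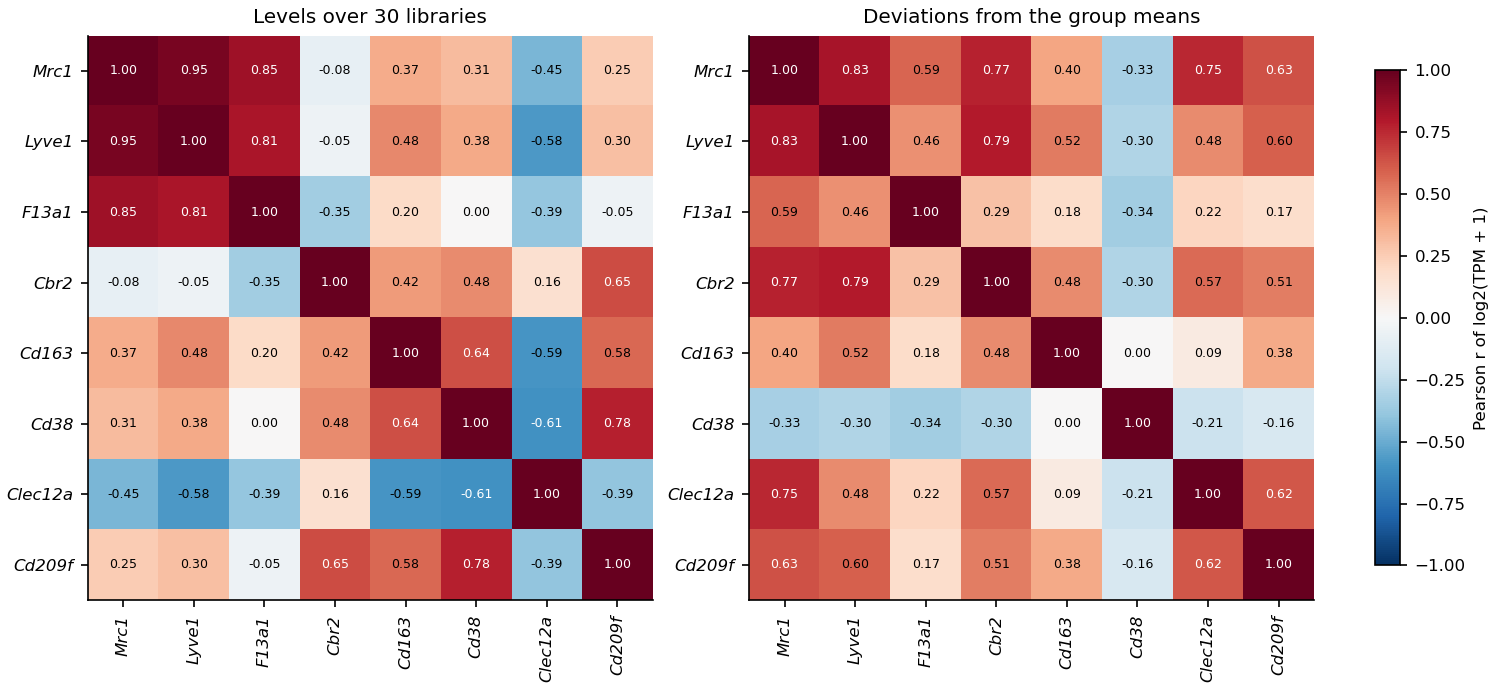
Pearson's r between the 8 markers over 30 libraries, of log2(TPM + 1) on the left and of its deviation from the group mean on the right, colored from -1 (blue) to 1 (red). On the right, *Mrc1*, *Lyve1*, *Cbr2*, *Clec12a* and *Cd209f* form a block with r of 0.48 to 0.83, and *Cd38* has no value above 0.00 with another marker.

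Across levels, in which the groups themselves differ, the same pairs parted. *Mrc1* and *Lyve1* had an r of 0.95 and *Mrc1* and *F13a1* of 0.85 over the 30 libraries, while *Mrc1* had -0.08 with *Cbr2* and -0.45 with *Clec12a*. The transcripts most like the mean z-score of the 8 markers over the 30 libraries were those of *Bmp2* (r = 0.89), *Cd4* (0.88), *Lbx1* (0.86), *Pomk* (0.84), *Ccl24* (0.84), *Cln8* (0.83), *Ppp1r18* (0.83), *Cc2d1b* (0.82), *Vps18* (0.81) and *Slc16a1* (0.80). Taken singly, *Mrc1* and *Lyve1* were both most like *Stard8* (r = 0.95 and 0.93), *F13a1* like *Atp6ap2* (0.91), *Cd163* like *Gpr157* (0.84), *Cbr2* like *Ccl8* (0.93), *Cd209f* like *Cd209g* (0.96) and *Cd38* like *Thbs2* (0.84). *Clec12a* was most like *Runx3* (0.92), whose level was 3.25 ± 0.345 TPM (SD, n = 3) in Saline + CTRL libraries, 117.6 TPM in those of Saline + MG-REP (SD 53.6, n = 3) and 6.92 TPM in those of MIA + MG-REP (SD 1.94, n = 3). The 30 points are 10 groups of 3, so these values rest largely on differences between groups.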

How the data were processed

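The authors sequenced poly(A) RNA of bead-isolated CD11B+ cells without keeping strand. They used Rsubread for alignment, and the submitters' processing notes name mm10 and featureCounts. Transcripts were kept by the authors where 3 or more libraries reached a CPM of 2. The deposited values are TPM that the authors computed for 14225 transcripts, and their formula is not given in the sources used here. Because they are TPM, no count model was fitted.

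The test was limma 3.58.1 (R 4.3.3). Values entered as log2(TPM + 1), and 1 model held the 30 libraries and 10 group means, a mean-variance trend, two-sided tests and Benjamini-Hochberg adjustment over the 14225 transcripts at 0.05. The contrasts were 3 age steps, MIA against Saline at 4 ages, MG-REP against CTRL in each kind of offspring, their difference, and MIA against Saline within MG-REP. A fold change on this scale understates the change of low transcripts. The share of all transcripts whose groups did not overlap was not counted, so an absence of overlap alone is a description. The fit was tested on simulated data. Reads per library were estimated from steps between low TPM, and 69.1% to 78.1% of these fell no further than 0.2 from a whole number of reads (chance, 40%), too few to recover counts. The labels give no sex, litter or batch.

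All members with a row are named, the 10 transcripts with the highest Pearson r to their mean z-score, the most similar transcript of each member, and, of a wider list, up to 4 per contrast with the largest fold change that passed with groups that do not overlap; *Runx3* and the transcripts whose values are repeated in a later contrast follow from these. Members, the wider list and the lists of antigen presenting cells, microglia, monocytes, neutrophils, fibroblasts, endothelial, mural and choroid plexus cells were chosen with earlier results of these data known. Promoters were taken from RefSeq on GRCm38.p6. Alternatives were an offset of 0.1, a filter at a mean of 1 TPM, scaling by median ratios or quantiles, a replicate block, only the groups compared, no trend, *Xist* as a covariate and each library left out; the use of only P60 CTRL libraries with *Xist* was added after the data were seen. Plots used matplotlib 3.10.9 under Python 3.11.15.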

Additional observations from a re-analysis of the deposited data

Results flagged for a closer look

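The effect of repopulation on *Clec12a* and on *Cd209f* differed between MIA and Saline offspring, by a test of the difference itself. For *Clec12a* the difference of the log2 fold changes, MIA minus Saline, was -2.37 (SE 0.51, limma adjusted p = 0.00291). The change of *Clec12a* was 2.95 in Saline and 0.58 in MIA offspring, where it did not pass (limma adjusted p = 0.954). For *Cd209f* the difference was 3.30 (SE 0.58, limma adjusted p = 0.000449). The change of *Cd209f* was -4.17 in Saline and -0.87 in MIA offspring, where it did not pass (limma adjusted p = 0.789). In the Saline + MG-REP libraries the microglial markers summed to 19887 to 22334 TPM, against 34904 to 39631 TPM in the MIA + MG-REP libraries, and the part of this in the 2 differences was not tested.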

How the results depend on the processing

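The counts of members that passed were 5, 6 and 5 in the age steps, 0 for MIA against Saline at each of 4 ages, 4 for MG-REP in Saline, 0 in MIA, 2 for the difference and 3 between the MG-REP groups. Of the recomputed counts 177 stayed within 1.5 times these and 6 did not, and no member that had passed changed direction when recomputed (414 fold changes passed again and 52 did not). For P60 CTRL against P20 the count was 0 with *Xist* as a covariate and 0 with only the P60 CTRL libraries with *Xist*, and 3 to 5 with each library left out (3 without P20 MIA 3 or MIA + CTRL 3); the covariate is bound up with age, and the cause was not tested otherwise. For MG-REP in Saline it was 2 in a fit of only the groups compared, which has fewer libraries to estimate the spread. For the difference it was 1 with only the P60 CTRL libraries with *Xist*, which leaves 1 library in each CTRL group, assumed to vary like the others. Numbered libraries were treated as unpaired, because the labels give no litter. Of 27 pairs of the same number 12 had an r over 0.1 (-0.53 to 0.66), which does not settle whether they were paired. With the replicate number as a block (replicate block) the counts were 5, 6, 5, 0, 0, 0, 0, 4, 0, 2 and 3, as without it. Over all transcripts, 3805 passed for MG-REP in Saline, 1911 with only the groups compared and 2460 to 3729 with a library left out; 79 in MIA, 30 with the covariate and 41 to 71; 1496 for the difference, 638 with *Xist*-positive CTRL libraries and 963 to 1631; 3124 between the MG-REP groups and 1731 to 3141; 1535 from E17 to P7 and 868 with only those groups; and 1700 from P20 to P60 CTRL, with 365 and 511 under the 2 *Xist* settings. On the wider list the difference had 5 higher and 7 lower, and 1 and 3 with *Xist*-positive CTRL libraries. The share of calls that were higher was 44.3% for MG-REP in Saline and 57.5% with median-ratio scaling, 35.5% and 49.4% from P20 to P60 CTRL, and 49.7% and 39.8% between the MG-REP groups. Under about 1 TPM, values rest on few reads, which limits *Cd163* throughout and *Cd209f* at E17 and in Saline + MG-REP.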

Other observations

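Another part of the border myeloid population, the antigen presenting macrophages and dendritic cells, were followed with a list of their own. The 9 listed transcripts of 8 genes, among them genes of MHC class II, summed to 81.3 to 109.8 TPM in E17 Saline, 149 to 224 TPM in P7 Saline, 366 to 756 TPM in P20 Saline and 816 to 1451 TPM in P60 Saline + CTRL libraries. Of the 9, 4 rose from E17 to P7, 6 from P7 to P20 and 3 from P20 to P60 CTRL, and 0 fell in any of these steps (limma, adjusted p under 0.05), where 10.8%, 50.7% and 12% of all transcripts passed. As for the markers, all P20 libraries held Xist and 4 of the 6 P60 CTRL libraries did not; the part of this in the last step was not tested for this list. At P60 the list summed to 756 to 1203 TPM in Saline + MG-REP and 1191 to 1557 TPM in MIA + MG-REP libraries. After repopulation 0 rose and 1 fell in Saline offspring, where 26.7% of all transcripts passed, and 0 changed in MIA offspring, where 0.555% passed. Of the 9, 2 were higher in MIA + MG-REP than in Saline + MG-REP libraries, where 22% of all transcripts passed.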
